A study of Mus musculus with 12 samples.

Results

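The microRNAs (miRNAs) miR-7a, miR-9, miR-9*, miR-124 and miR-128, best known from the nervous system, were followed through 4 mouse breast cancer cell lines. They were chosen by name, as the entries mmu-miR-7a, mmu-miR-9, mmu-miR-9*, mmu-miR-124 and mmu-miR-128 (mmu for mouse) of a one-colour Agilent array, and make 5 of its 577 miRNAs; miR-9* is the strand opposite miR-9 in the same hairpin. The lines are the metastatic 4T1 and the non-metastatic 4TO7, 168FARN and 67NR, with 3 arrays each (12 in all) and 100 ng of Trizol-extracted total RNA per array. The labels give all of them as wild type lines from spontaneous mammary cancers of female Balb/C mice. In the study's design each line stands for a step of metastasis, and the question put to the arrays is which miRNAs go with which step. A step is represented by 1 line, so step and line cannot be told apart. The labels do not say whether the 3 arrays of a line come from separate cultures, so p-values here reflect the scatter among these arrays alone, possibly a technical one, and the number of arrays limits the precision.

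A miRNA is a short RNA that guides the silencing machinery to messenger RNAs, mainly by pairing through its seed, the stretch just behind its 5′ end. miR-124 is the miRNA that marks neurons, miR-9 and miR-9* are made in neural progenitors and young neurons, miR-128 is abundant in mature brain, and miR-7 is found in neurons and in hormone-secreting cells. In cancer cells miR-7 is known to repress the growth factor receptor Egfr, miR-9 to repress E-cadherin (Cdh1), the adhesion protein of epithelia, and miR-128 to repress the Polycomb protein Bmi1. Messenger RNAs were not analysed here.

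The mature sequences below, from RefSeq on GRCm38.p6, are shown because the seed (bases 2 to 8, in capitals) decides which messages a miRNA can pair with. The relative miR-7b is included for comparison. In the table of RefSeq sequences 4 of the 5 miRNAs were matched.
miR-7a: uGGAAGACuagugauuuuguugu
miR-7b: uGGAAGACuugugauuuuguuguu
miR-9: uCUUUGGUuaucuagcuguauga
miR-9*: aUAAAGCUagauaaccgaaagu
miR-128: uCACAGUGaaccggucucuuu
miR-7a and miR-7b share their seed and, over 23 bases counted from the 5′ end of miR-7a, differ by A10U. No other mature mouse miRNA of the table has the seed of miR-9, of miR-9* or of miR-128, so the strands of the miR-9 hairpin have different seeds.

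miR-9 and miR-9* are cut from 3 hairpins with identical arms, shown here with both mature strands in capitals (miR-9 first).
Mir9-1: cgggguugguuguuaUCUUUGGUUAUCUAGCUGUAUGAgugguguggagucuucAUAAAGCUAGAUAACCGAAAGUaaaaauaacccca
Mir9-2: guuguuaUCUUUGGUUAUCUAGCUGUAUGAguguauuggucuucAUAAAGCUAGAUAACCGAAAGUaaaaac
Mir9-3: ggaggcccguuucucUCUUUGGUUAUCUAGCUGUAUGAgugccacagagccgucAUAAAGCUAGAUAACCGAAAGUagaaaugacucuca
RefSeq places Mir9-1 on chromosome 3 within the long non-coding gene Gm3764, Mir9-2 on chromosome 13 within the long non-coding gene C130071C03Rik, and Mir9-3 on chromosome 7 within the long non-coding gene Mir9-3hg. miR-7a comes from Mir7-1 on chromosome 13, within the coding gene Hnrnpk, and from Mir7-2 on chromosome 7. miR-128 comes from Mir128-1 on chromosome 1, within the coding gene R3hdm1, and from Mir128-2 on chromosome 9, within the coding gene Arpp21. An array reads the mature strand, so the contributions of these genes cannot be told apart. The array files give the target of the probe used as chr13:58494202-58494223 for miR-7a, chr13:83878430-83878448 for miR-9, chr13:83878466-83878484 for miR-9*, chr14:65209551-65209565 for miR-124 and chr1:130098982-130099001 for miR-128 (mm9).

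Each of the 5 miRNAs has 2 probes of 10 spots, and the brighter probe stands for it. Signals are given in the scanner software's processed units, after background subtraction and without scaling. Levels are log2 of the signal divided by the array's own 75th percentile over 170 bright probes, with a floor of -5.58 for dim signals. A probe is called read where more than 50% of its spots were well above background. Differences are in log2 units with their standard error (SE), the first line minus the second, from one limma fit of 225 miRNAs, and a difference is called at a Benjamini-Hochberg adjusted p below 0.05.

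The 67NR arrays stood apart from the other arrays before any test. The 75th percentile of bright probes was 889 to 1136 units in 4T1, 600 to 671 in 4TO7 and 791 to 1213 in 168FARN, against 358 to 460 in 67NR, so scaling raises 67NR against every other line. The floor is a single scaled value, so in signal units it lies lowest on the 67NR arrays. A dim signal can thus be set to the floor in another line and keep a level in 67NR. A control probe named hur_5 gave 1.25 to 6.36 units on the arrays of the other lines, against 180 to 207 on the 67NR arrays. Across tested miRNAs the correlation was 0.99 to 1.00 between arrays of one line and 0.84 to 0.96 among 4T1, 4TO7 and 168FARN, and it was 0.54 to 0.64 between 67NR and those lines. The number of miRNAs read on an array was 166 to 188 in 4T1, 148 to 160 in 4TO7, 176 to 192 in 168FARN and 142 to 161 in 67NR. None of the 7 epithelial miRNAs listed (such as miR-200c and miR-205) was read on all arrays of a line, and their summed signal was below 0 on every array except those of 67NR (18.3 to 37.9 units), where miR-200c and miR-141 were each read on 1 array. Of 8 mesenchymal miRNAs on the array 2 were read on all arrays of 4T1, 2 on those of 4TO7, 6 on those of 168FARN and 2 on those of 67NR. What part these features have in the values below was not tested.

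**Figure D1:**
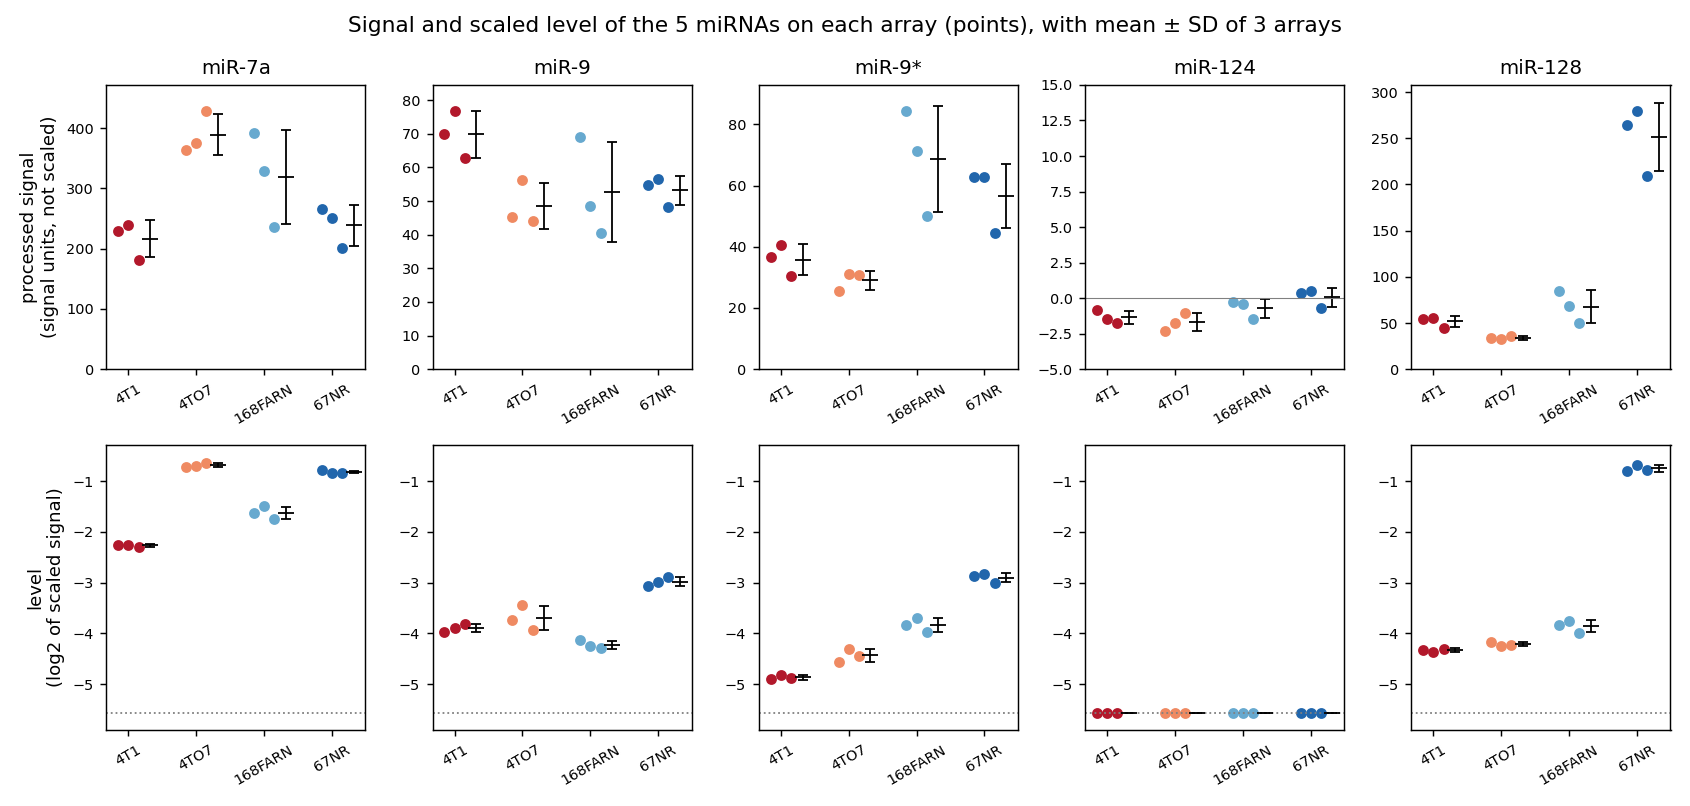
Processed signal (upper row, linear axis in signal units) and scaled level (lower row, log2, dotted line at the floor) of the 5 miRNAs on each of 12 arrays; points are arrays, bars the mean ± SD of 3 arrays. miR-128 stands at 32.3 to 85.1 units in 4T1, 4TO7 and 168FARN, below the 209.5 to 279.7 units of 67NR, and miR-124 lies at the floor throughout.

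miR-7a, the Egfr repressor, had its lowest scaled level in the metastatic line. Its signal was 229, 239 and 181 units in 4T1, against 364, 375 and 429 in 4TO7, 391, 328 and 237 in 168FARN and 266, 251 and 201 in 67NR. Before scaling the 4T1 arrays therefore lay below all 4TO7 arrays, reached the lowest array of 168FARN with 1 array, and overlapped with 67NR. After scaling the 12 arrays fell into 4 separate bands: the level was -2.27 ± 0.02 in 4T1, -0.69 ± 0.04 in 4TO7, -1.62 ± 0.12 in 168FARN and -0.82 ± 0.03 in 67NR (SD, n = 3 each).

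Against 4TO7, miR-7a in 4T1 was lower by 2.98-fold, a log2 difference of -1.58 ± 0.05 (95% confidence interval -1.69 to -1.46, adjusted p = 3.9e-10). Among the 225 miRNAs tested in that comparison 1.33% had a difference as low or lower. Against 168FARN the difference was smaller, -0.64 ± 0.05 (adjusted p = 4.7e-07), and 26.2% of the miRNAs were as low or lower. Both calls held under all 28 alternatives run for them, with values between -1.73 and -0.85 against 4TO7 and between -0.76 and -0.41 against 168FARN.

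Against 67NR the scaled miR-7a difference was -1.45 ± 0.05 (adjusted p = 1.6e-10), but it rests on the scaling. Without scaling it was -0.14, with an adjusted p of 0.51 in limma, while the other 25 alternatives kept the call. Between non-metastatic lines, miR-7a was lower in 168FARN than in 67NR by -0.80 ± 0.05 (adjusted p = 3.4e-08), a sign that turned to 0.39 without scaling (adjusted p = 0.052). It was higher in 4TO7 than in 168FARN by 0.93 ± 0.05 (adjusted p = 1.8e-08), and 0.32 without scaling (adjusted p = 0.12).

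4TO7 and 67NR, the neighbours at the top of the order, differed by 0.13 ± 0.05 (95% confidence interval 0.01 to 0.24, adjusted p = 0.042). That call was lost under 14 of 26 alternatives, among them 10 of the 12 fits that left out 1 array (adjusted p up to 0.14), and turned to -0.17 with the software's total signal per miRNA. The order of miR-7a levels was thus 4T1, 168FARN, then 67NR and 4TO7 close together. The second miR-7a probe, 1 base shorter at its target and dimmer (27.0 to 61.2 units over all arrays), gave -1.58 for 4T1 against 4TO7, -0.50 against 168FARN and -1.50 against 67NR.

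The relative miR-7b, with the same seed, was read on no array, with mean signals of 3.75 units in 4T1, 7.12 in 4TO7, 3.87 in 168FARN and 3.77 in 67NR. miR-7a*, by its name an opposite strand of miR-7a, was dim but read on all 12 arrays. Its signal was 22.6 to 28.7 units in 4T1, 18.2 to 21.3 in 4TO7, 18.5 to 28.6 in 168FARN and 16.1 to 21.2 in 67NR. Unscaled, every 4T1 array was brighter than those of 4TO7 and 67NR. Its scaled level was -5.31 in 4T1, -4.97 in 4TO7, -5.40 in 168FARN and -4.45 in 67NR. On the scaled levels miR-7a* in 4T1 was lower than in 67NR by -0.86 ± 0.05 and than in 4TO7 by -0.34 ± 0.05 (adjusted p = 9.4e-09 and 9.4e-05), and its difference from 168FARN was 0.09 ± 0.05 (adjusted p = 0.1). Both directions turned without scaling, to 0.44 against 67NR (adjusted p = 0.025) and 0.38 against 4TO7 (adjusted p = 0.071).

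miR-9, the strand that represses E-cadherin, had line means from 48.5 units (4TO7) to 69.8 units (4T1) before scaling. It gave 69.8, 76.8 and 62.9 units in 4T1, against 45.2, 56.2 and 44.1 in 4TO7, 69.0, 48.5 and 40.4 in 168FARN and 54.9, 56.4 and 48.2 in 67NR. Unscaled, every 4T1 array was brighter than the arrays of the other lines, except 1 array of 168FARN. After scaling 67NR was highest: the level was -3.89 ± 0.08 in 4T1, -3.70 ± 0.24 in 4TO7, -4.23 ± 0.08 in 168FARN and -2.98 ± 0.09 in 67NR (SD, n = 3 each).

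The scaled miR-9 level in 4T1 was lower than in 67NR by -0.91 ± 0.10 (adjusted p = 6.8e-06), higher than in 168FARN by 0.34 ± 0.10 (adjusted p = 0.012), and -0.19 ± 0.10 from that in 4TO7 (95% confidence interval -0.42 to 0.04, adjusted p = 0.14). Without scaling the first of these turned to 0.39 (adjusted p = 0.052), and it lost its call with scaling to all probes (-0.20) and with quantile scaling (-0.25). The difference from 168FARN stayed positive under all 28 alternatives, 0.11 to 0.76, but missed the threshold under 4 of them. The difference of 4T1 from 4TO7 was called in opposite directions by different settings, 0.53 without scaling (adjusted p = 0.018) and -0.43 with normexp (adjusted p = 0.0012). The 4TO7 arrays were widely spread, and without 4TO7 replicate 3 this difference became -0.30 (adjusted p = 0.014).

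Among the non-metastatic lines miR-9 was lower in 168FARN than in 67NR by -1.25 ± 0.10 and in 4TO7 than in 67NR by -0.72 ± 0.10, and higher in 4TO7 than in 168FARN by 0.53 ± 0.10 (adjusted p = 3.5e-07, 4.9e-05 and 7.2e-04). Without scaling these became -0.05, -0.14 and -0.09, none of them called. The order of scaled levels was 168FARN, 4T1, 4TO7 and 67NR, and the order of the neighbours 4T1 and 4TO7 was not settled. The second miR-9 probe was dimmer, was read on 9 of 12 arrays and had a mean level of -5.57 in 168FARN, near the floor. It gave -0.77, 0.20 and -0.15 for 4T1 against 67NR, 168FARN and 4TO7. Its other differences were -0.97 for 168FARN against 67NR, -0.62 for 4TO7 against 67NR and 0.35 for 4TO7 against 168FARN.

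miR-9*, from the opposite arm of the same hairpins, followed another order. Its signal was 36.6, 40.4 and 30.3 units in 4T1, against 25.5, 31.1 and 30.8 in 4TO7, 84.4, 71.1 and 50.1 in 168FARN and 62.7, 62.7 and 44.5 in 67NR. The arrays of 4T1 and 4TO7 lay below all those of 168FARN and 67NR even before scaling. The scaled level was -4.86 ± 0.05 in 4T1, -4.44 ± 0.13 in 4TO7, -3.84 ± 0.14 in 168FARN and -2.91 ± 0.09 in 67NR (SD, n = 3 each), with no overlap between lines.

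miR-9* in 4T1 was lower than in 67NR by -1.96 ± 0.08 (3.88-fold, adjusted p = 5e-10) and lower than in 168FARN by -1.02 ± 0.08 (2.03-fold, adjusted p = 3.5e-07). In 4TO7 it was lower than in 67NR by -1.53 ± 0.08 (adjusted p = 5.1e-09). These 3 calls held under every alternative run, with the smallest sizes -0.65, -0.51 and -0.90. miR-9* was also lower in 4TO7 than in 168FARN by -0.59 ± 0.08 (adjusted p = 3.9e-05), which turned to 0.05 with the normexp background correction.

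The difference of miR-9* between 4T1 and 4TO7 was -0.43 ± 0.08 (adjusted p = 7.3e-04), but 0.29 without scaling (adjusted p = 0.24), and it lost its call with scaling to all probes (-0.15) and with a doubled floor (-0.14). In 168FARN miR-9* was lower than in 67NR by -0.94 ± 0.08 (adjusted p = 4.4e-07), and 0.26 without scaling (adjusted p = 0.23). The second miR-9* probe was read on 1 of 3 arrays in 4T1 and on 0 of 3 in 4TO7, where it lay at the floor, against all arrays of 168FARN (33.8 to 58.7 units) and 67NR (26.7 to 37.5 units).

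Because both strands were read on every array, their difference within an array can be compared between lines without regard to a scaling factor. The value itself has no zero, since it comes from different probes, and only its change between lines is used. miR-9* minus miR-9 was -0.97 ± 0.07 in 4T1, -0.73 ± 0.19 in 4TO7, 0.38 ± 0.15 in 168FARN and 0.08 ± 0.17 in 67NR (SD, n = 3 each). The arrays of 4T1 and 4TO7 lay below those of 168FARN and 67NR.

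**Figure D2:**
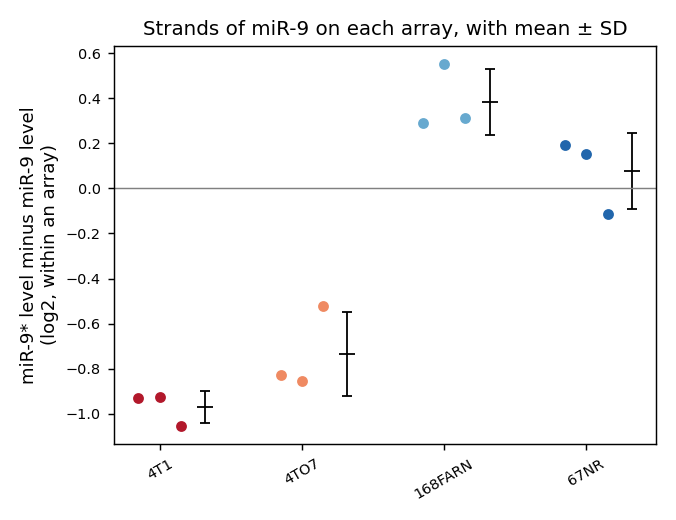
Level of miR-9* minus level of miR-9 within each array (log2), by line; points are arrays, bars the mean ± SD of 3 arrays. The mean is -0.97 in 4T1 and -0.73 in 4TO7, against 0.38 in 168FARN and 0.08 in 67NR.

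Relative to miR-9, miR-9* was lower in 4T1 than in 168FARN by -1.35 and than in 67NR by -1.05, and lower in 4TO7 than in 168FARN by -1.12 and than in 67NR by -0.81. The gaps between 4T1 and 4TO7 (-0.24) and between 168FARN and 67NR (0.31) were smaller. With 3 arrays against 3 the exact two-sided permutation test gave p = 0.1 for each of the 6 comparisons (adjusted p = 0.1), the smallest it can give, so none can pass the threshold. With the normexp correction the 4 larger values shrank to -0.62, -0.45, -0.49 and -0.32 with their signs kept, and with a doubled floor the gap between 4T1 and 4TO7 turned to 0.05.

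miR-128, the brain miRNA that represses Bmi1, set 67NR apart from the other lines. Its signal was 54.8, 55.1 and 45.1 units in 4T1, against 33.4, 32.3 and 35.9 in 4TO7, 85.1, 68.5 and 49.9 in 168FARN and 264.6, 279.7 and 209.5 in 67NR. The 67NR arrays lay far above all others although their bright probes were the dimmest of the series. The scaled level was -4.33 ± 0.03 in 4T1, -4.21 ± 0.04 in 4TO7, -3.86 ± 0.11 in 168FARN and -0.75 ± 0.06 in 67NR (SD, n = 3 each).

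miR-128 was lower than in 67NR by 11.9-fold in 4T1 (-3.58 ± 0.06, adjusted p = 9.7e-14), by -3.46 ± 0.06 in 4TO7 (adjusted p = 1.1e-13) and by 8.64-fold in 168FARN (-3.11 ± 0.06, adjusted p = 2.2e-13). All 3 calls held under each alternative run, and the smallest sizes were -2.28, -2.21 and -1.91. Counted from the highest of the 225 differences, miR-128 stood at place 214 in 4T1, 215 in 4TO7 and 203 in 168FARN against 67NR. The second miR-128 probe gave -3.48, -3.64 and -3.15. Among the other lines it gave -0.34 for 4T1 against 168FARN, -0.50 for 4TO7 against 168FARN and 0.16 for 4T1 against 4TO7.

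Among the 3 other lines the scaled miR-128 differences were smaller. miR-128 was lower in 4T1 than in 168FARN by -0.47 ± 0.06 (adjusted p = 1.3e-05) and in 4TO7 than in 168FARN by -0.35 ± 0.06 (adjusted p = 1.3e-04). The call of the first was lost under quantile scaling (-0.12) and without scaling (-0.36). The second lost its call under quantile scaling (-0.08), turned to 0.14 with normexp, and was -0.97 without scaling (adjusted p = 1.2e-04). For 4T1 against 4TO7 the difference was -0.11 ± 0.06 (95% confidence interval -0.24 to 0.01, adjusted p = 0.10), and its sign turned under 3 alternatives, among them 0.61 without scaling, a call in the other direction (adjusted p = 0.0082), so the order of these neighbours was not settled.

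miR-124, the miRNA that defines neurons, was not well above background on any of the 12 arrays with either probe. The signals of the brighter probe ran from -1.73 to -0.83 units in 4T1, from -2.28 to -1.01 in 4TO7, from -1.45 to -0.24 in 168FARN and from -0.69 to 0.52 in 67NR. It was therefore not tested, and no fold is given. The opposite strand miR-124* was likewise read on no array.

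**Figure D3:**
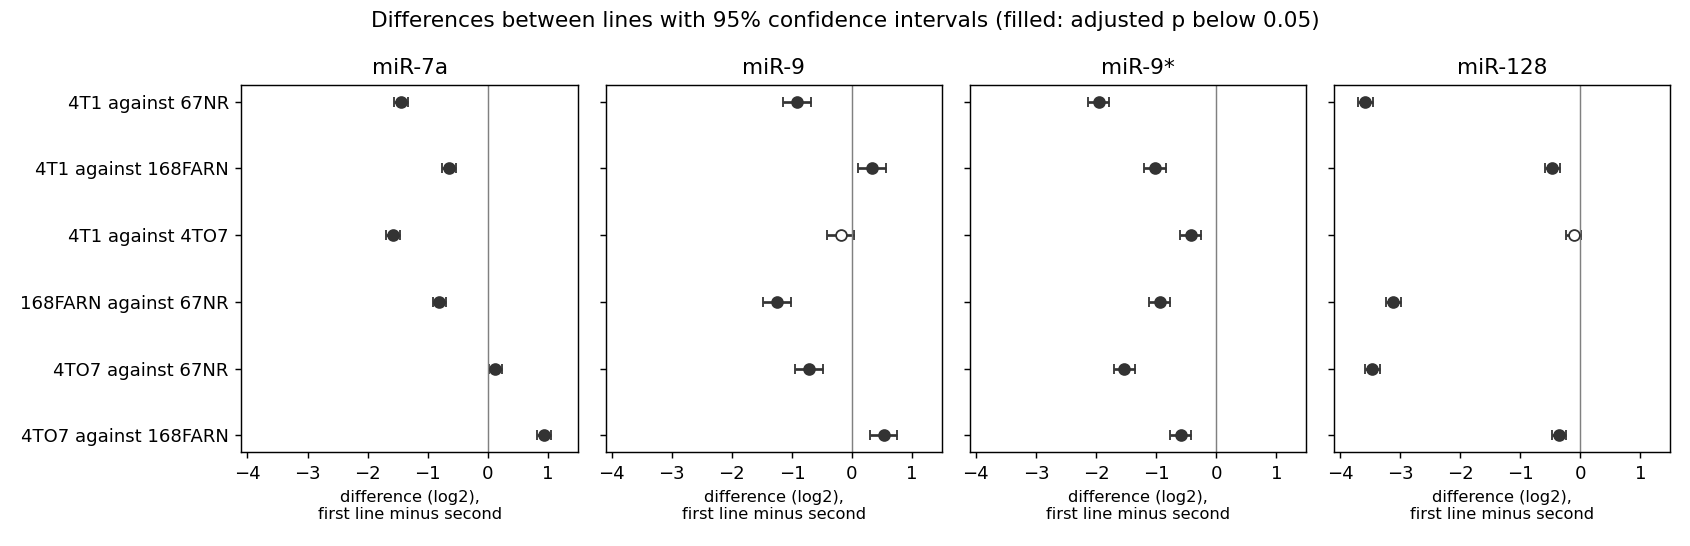
Differences of the 4 tested miRNAs between lines (log2, first line minus second) with 95% confidence intervals; filled points have an adjusted p below 0.05 in limma. All 4 are below 0 for 4T1 against 67NR, and miR-128 reaches -3.58 there, -3.11 for 168FARN and -3.46 for 4TO7.

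Counted over the 4 tested miRNAs, all 4 were lower in 4T1 than in 67NR, where 47.6% of all tested miRNAs were called lower, 32% higher and 79.6% in either direction. In 4T1 against 168FARN 3 were lower and 1 higher (background 39.6% lower and 34.2% higher, 73.8% in all). In 4T1 against 4TO7 2 were lower and 2 were not called (background 35.6% lower and 24.9% higher, 60.4% in all). With the test limited to the 97 miRNAs read on all 12 arrays, as these 4 were, 59 were called lower and 29 higher in 4T1 against 67NR. The called shares are high throughout, so a call by itself does not set these miRNAs apart from the rest of the array.

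For the non-metastatic pairs, all 4 were lower in 168FARN than in 67NR (background 48% lower and 40% higher, 88% in all). In 4TO7 against 67NR 3 were lower and 1 higher (background 48% lower and 31.6% higher, 79.6% in all). Among the 97 miRNAs read on all 12 arrays, 62 were called lower and 30 higher in 168FARN against 67NR, and 59 and 28 in 4TO7 against 67NR. In 4TO7 against 168FARN 2 were higher and 2 lower (background 35.1% and 39.1%, 74.2% in all). The arrays of the lines compared did not overlap for 4 of the 4 miRNAs in 4T1 against 67NR (background 81.3%), 4 in 4T1 against 168FARN (76.4%) and 3 in 4T1 against 4TO7 (67.6%), miR-9 being the exception. They did not overlap for all 4 in 168FARN against 67NR (86.7%), 4TO7 against 67NR (80%) and 4TO7 against 168FARN (72.9%).

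The median difference of the 4 was -1.70 in 4T1 against 67NR, -0.56 against 168FARN and -0.31 against 4TO7, where the medians of all tested miRNAs were -0.05, 0 and 0. It was -1.09 in 168FARN against 67NR, -1.13 in 4TO7 against 67NR and 0.09 in 4TO7 against 168FARN, beside -0.06, -0.15 and 0. Many of the tested miRNAs were not read in every line. Over the 97 read on all 12 arrays, as these 4 were, the median was -0.92, 0.03 and -0.11 for 4T1 against 67NR, 168FARN and 4TO7, -1 for 168FARN against 67NR, -0.72 for 4TO7 against 67NR and 0.08 for 4TO7 against 168FARN.

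**Figure D4:**
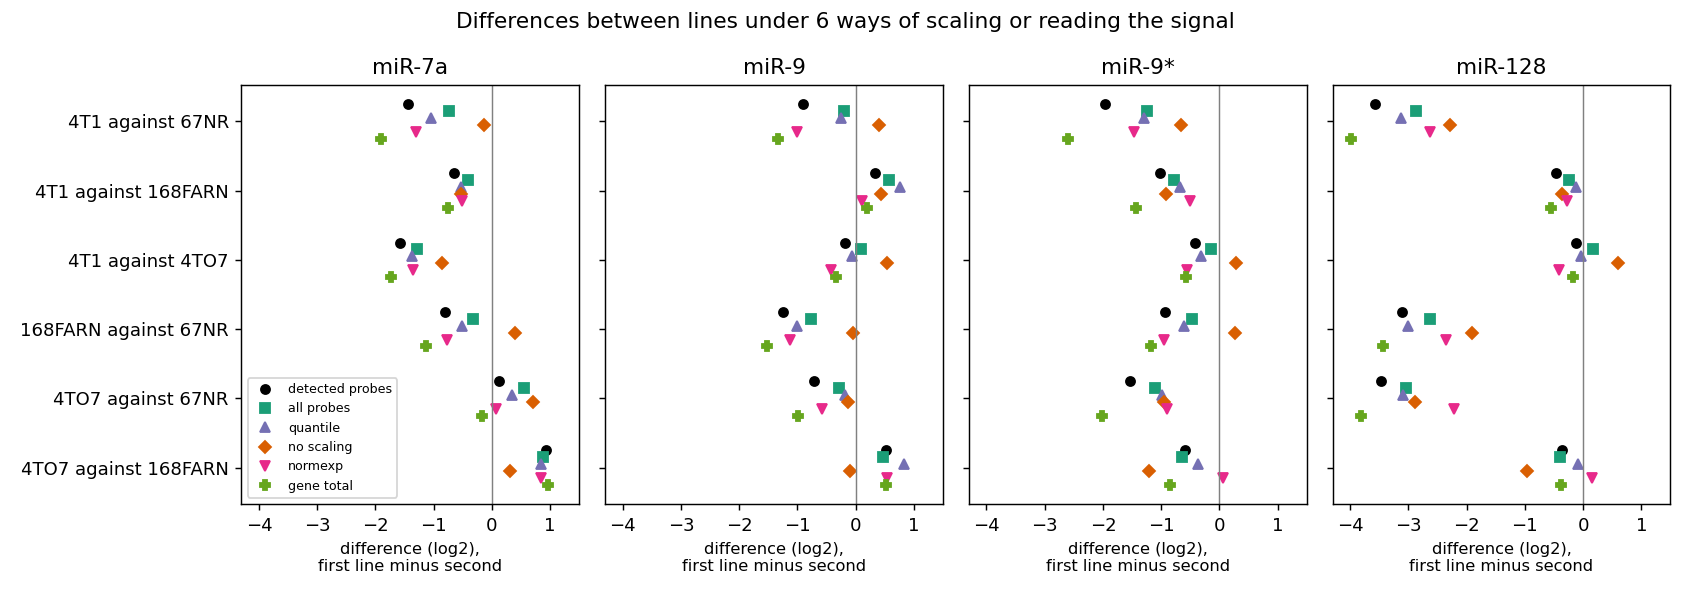
Differences of the 4 tested miRNAs between lines (log2, first line minus second) with the signal scaled to detected bright probes, scaled to all probes, quantile scaled, unscaled, corrected by normexp, or taken as the software's total per miRNA. miR-7a stays between -1.73 and -0.85 for 4T1 against 4TO7, while miR-9 for 4T1 against 67NR runs from -1.33 to 0.39.

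The slide of each array, read from its barcode, was taken as a possible batch, though the labels name none. Slide 1 held the 3 67NR arrays and replicate 1 of 168FARN, and slide 2 the other arrays. Within slide 2, miR-7a differed by -1.58 for 4T1 against 4TO7, -0.65 for 4T1 against 168FARN and 0.93 for 4TO7 against 168FARN. In the same order miR-9* differed by -0.43, -1.02 and -0.59, miR-9 by -0.19, 0.38 and 0.57, and miR-128 by -0.11, -0.45 and -0.34. Each call among these was kept, the weakest that of miR-9 in 4T1 against 168FARN (limma adjusted p = 0.049).

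Within slide 1, where the lone 168FARN array is assumed to vary like those of 67NR, miR-7a differed by -0.81, miR-9 by -1.15, miR-9* by -0.94 and miR-128 by -3.08 for 168FARN against 67NR, all called. 4T1 and 4TO7 share no slide with 67NR. Only 168FARN is on both slides, so a slide term is set by its lone array on slide 1 against its other arrays. The values against 67NR in such a fit therefore lean on that array. With slide as a term in the fit, miR-128 differed by -3.54 in 4T1 and -3.42 in 4TO7 against 67NR, miR-9* by -1.96 and -1.53, miR-9 by -0.77 and -0.58, and miR-7a by -1.46 and 0.12. All of these were called apart from the last (limma adjusted p = 0.31).

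The miRNAs whose levels ran most like each of these were found by the root mean square difference of centred levels over the 12 arrays (median 1.23 over all pairs of tested miRNAs), as a description. Nearest to miR-128 were miR-101a (0.14), miR-374 (0.15) and miR-551b (0.21), all high in 67NR alone. Nearest to miR-9 were miR-720 (0.17), miR-15b (0.18) and miR-7a* (0.18), and nearest to miR-9* were miR-378 (0.20), miR-30e (0.28) and miR-1224 (0.30). miR-7a had no neighbour as close: miR-574-5p (0.34), miR-494 (0.38) and miR-712 (0.40) were nearest. Each of these was highest in 67NR, while the miR-7a levels of 67NR and 4TO7 were close together. Among the 4 themselves, miR-7a and miR-9 were closest (0.53), and miR-9 and its opposite strand miR-9* lay 0.57 apart.

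Of 24 other miRNAs listed as nervous system miRNAs or relatives, 23 are on the array and 7 were read on all arrays of a line and tested. Counts were 1 higher, 4 lower and 2 not called in 4T1 against 67NR, 3, 1 and 3 against 168FARN, and 2, 2 and 3 against 4TO7. They were 0, 5 and 2 in 168FARN against 67NR, 1, 5 and 1 in 4TO7 against 67NR, and 2, 0 and 5 in 4TO7 against 168FARN. In each comparison the list's called share was near or below the background, which in the same order was 79.6%, 73.8%, 60.4%, 88%, 79.6% and 74.2%. Without scaling the counts became 5, 1 and 1 in 4T1 against 67NR and 0, 2 and 5 in 4TO7 against 168FARN. The 225 tested miRNAs turned likewise, from 72 higher and 107 lower to 104 and 66, and from 79 and 88 to 38 and 127. In 4T1 against 67NR the list counts also became 4, 2 and 1 with scaling to all probes (all tested miRNAs: 90 higher and 87 lower). They were 4, 3 and 0 with quantile scaling (all tested: 91 and 90). With normexp they were 0, 5 and 2 (all tested: 39 and 170). The median difference of the 7 was -0.19, 0.09 and 0 for 4T1 against 67NR, 168FARN and 4TO7, beside -0.05, 0 and 0 for all tested miRNAs. It was -0.95 in 168FARN against 67NR, -0.90 in 4TO7 against 67NR and 0 in 4TO7 against 168FARN, beside -0.06, -0.15 and 0.

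miR-218, a miRNA of motor neurons, was read in 67NR only. It was not well above background in 4T1, 4TO7 or 168FARN, against 302 to 386 units in 67NR. On the scaled levels it was at least 40.4-fold lower in 4T1 and in 168FARN, and at least 35.7-fold lower in 4TO7. No p-value is given for these folds. miR-218 entered the test through 67NR alone, and its levels in the other lines were all set to the floor. An "at least" fold sets the mean of the bright line against the lowest signal well above background on each array of the dim line, or the floor where that was higher. Such a fold holds for the main scaling and floor only. Without scaling the fitted miR-218 difference was -4.65 (25.2-fold) in each of these comparisons, with the dim lines at the floor. With a doubled floor it was -4.34 in each. With normexp it was -3.93 in 4T1, -3.83 in 168FARN and -3.23 in 4TO7.

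miR-132, which neuronal activity induces, was higher in the metastatic line than in each other line on the scaled levels. It gave 138 to 164 units in 4T1, against 23.5 to 29.1 in 67NR, and was not well above background in 4TO7 or 168FARN. In 4T1 it was 2.33-fold higher than in 67NR (limma adjusted p = 6.6e-11, or 1.3e-05 with only these 2 lines fitted). It was at least 7.08-fold higher than in 168FARN and at least 6.25-fold higher than in 4TO7. No p-value is given for these minima, since all levels of the dim lines were set to the floor and show no scatter. These minima hold for the main scaling and floor only. The fitted log2 differences from 168FARN and 4TO7 were 2.82 each. They shrank to 1.68 and 1.01 with normexp, both still called, and to 1.82 each with a doubled floor. The size of the gap to 67NR rests on the processing, with a log2 difference of 1.22 on the scaled levels, 2.52 without scaling (adjusted p = 5.2e-12) and 0.07 with normexp (adjusted p = 0.6). Its cluster partner miR-212 was read in all lines with levels between -1.52 and -1.19, and was called in 1 comparison, 4T1 against 168FARN (0.33 ± 0.14, adjusted p = 0.049), a call that was lost under 21 of 28 alternatives.

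miR-338-3p and miR-219, both miRNAs of oligodendrocytes, differed in pattern. miR-338-3p was read in 4T1 (58.0 to 73.2 units) and in 67NR (24.5 to 35.7 units) and was not well above background in 4TO7 or 168FARN. In 4T1 it was at least 3.07-fold higher than in 168FARN and at least 2.71-fold higher than in 4TO7. Against 67NR the difference was -0.19 ± 0.05 (limma adjusted p = 0.0024, or 0.039 with only these 2 lines fitted). The direction against 67NR turned to 1.11 without scaling (adjusted p = 2.3e-06), 0.52 with all probes as the scaling base and 0.44 with quantile scaling (adjusted p = 2.2e-05 and 4e-06). The minima against 168FARN and 4TO7 hold for the main scaling and floor only, where the fitted log2 differences were 1.62 each. With a doubled floor they were 0.62 each. With normexp the gap to 168FARN was 0.82, and that to 4TO7 lost its call (0.12, limma adjusted p = 0.3). miR-219 stayed dim at 13.4 to 29.8 units and was read on all arrays of 168FARN alone, on 2 of 3 in 4T1, 1 of 3 in 4TO7 and 2 of 3 in 67NR. Its mean signal was 24.6 units in 168FARN and 18.9 in 67NR. After scaling the order was the reverse, with -0.84 ± 0.10 for 168FARN against 67NR (limma adjusted p = 6.1e-06). miR-338-5p, the opposite strand of miR-338-3p, was read on all arrays in 4TO7 alone, at 17.5 to 18.8 units. It was as dim elsewhere, at 12.6 to 24.8 units in 4T1 and 15.4 to 17.6 in 168FARN (read on 2 of 3 arrays in each). In 67NR it gave 7.5 to 10.9 units and was not read.

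**Figure D5:**
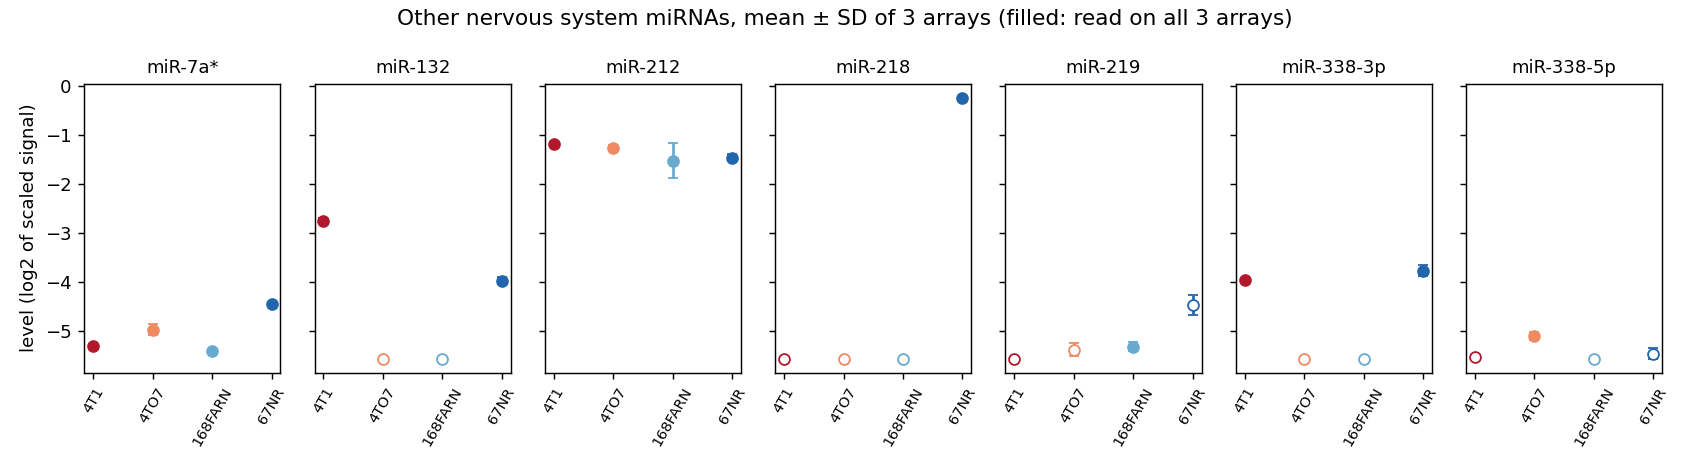
Level (log2 of scaled signal, mean ± SD of 3 arrays) of the 7 tested miRNAs of the nervous system list by line; open points mark lines where the miRNA was not read on all 3 arrays. miR-218 is read in 67NR only, and miR-132 in 4T1 and 67NR.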

How the data were processed

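The 12 deposited scanner files hold spot intensities. Per the file headers, the authors used Feature Extraction (version 10.2.1.3), whose processed intensity has background subtracted and carries no scaling between arrays. The deposited series values equal it exactly. Genome positions are mm9, per the files.

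Control spots and 284 to 508 uneven or outlying spots per array were left out of 12493. Spots were averaged into 1712 probes. Scaling divided an array by the 75th percentile of the 170 probes read on all arrays, a floor of 0.0209 was set, and log2 was taken. A miRNA took its brightest probe. In all, 225 of 577 miRNAs, read on all 3 arrays of at least 1 line, were tested.

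limma 3.58.1 (R 4.3.3, data.table, version 1.17.8) fitted 4 lines to 12 arrays (8 residual degrees of freedom). p-values were adjusted by Benjamini-Hochberg within each of 6 comparisons. The fit was tested on simulated data. Alternatives covered scaling, normexp with an offset of 50, probe summary, filter, floor, slide, samples fitted, variance model, replicate block and each array left out; those of the miR-9 strand comparison and of the nervous system list were chosen after seeing the data.

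The named miRNAs are the 5 themselves, the nervous system list, and the 3 nearest patterns of each tested one. Members and lists were chosen with earlier results of these data known.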

Additional observations from a re-analysis of the deposited data

How the results depend on the processing

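Over 29 alternative settings the differences of the 4 tested miRNAs were recomputed 652 times, and 603 kept both direction and side of the threshold, 30 lost the call, 6 gained it and 13 changed sign. The signs that changed were, without scaling, miR-9 (0.39) for 4T1 against 67NR, miR-128 (0.61), miR-9 (0.53) and miR-9* (0.29) for 4T1 against 4TO7, miR-7a (0.39) and miR-9* (0.26) for 168FARN against 67NR, and miR-9 (-0.090) for 4TO7 against 168FARN. With all probes as the scaling base they were miR-128 (0.17) and miR-9 (0.091) for 4T1 against 4TO7, with normexp miR-128 (0.14) and miR-9* (0.054) for 4TO7 against 168FARN, with the mean of all probes miR-128 (0.022) for 4T1 against 4TO7, and with the software's total signal miR-7a (-0.17) for 4TO7 against 67NR. The doubled floor turned the strand comparison of miR-9 to 0.050 for 4T1 against 4TO7. The 13 differences printed for miRNAs of the nervous system list were recomputed 344 times, and 305 kept direction and side of the threshold, 27 lost the call (21 of them miR-212 in 4T1 against 168FARN), 5 gained it and 7 changed sign: miR-7a* in 4T1 without scaling (0.44 against 67NR, 0.38 against 4TO7), with normexp (-0.038 against 168FARN) and with the total signal (-0.022 against 168FARN), and miR-338-3p in 4T1 against 67NR (1.11, 0.52 and 0.44, unscaled, all probes, quantile). The causes were not tested.

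Without scaling the median of all tested miRNAs moved to 0.11, 0 and 0.34 for 4T1 against 67NR, 168FARN and 4TO7, and relative to it miR-7a in 4T1 was at -0.26 against 67NR and miR-9* at -0.05 against 4TO7. With normexp the medians were -1.08, -0.07 and -0.46. The calls in 4T1 against 67NR, 168FARN and 4TO7, 72 higher and 107 lower, 77 and 89, and 56 and 80, became 104 and 66, 69 and 75, and 105 and 7 without scaling. They became 90 and 87, 93 and 73, and 79 and 40 with all probes, and 39 and 170, 62 and 81, and 26 and 168 with normexp. In 168FARN against 67NR, 4TO7 against 67NR and 4TO7 against 168FARN, 90 and 108, 71 and 108, and 79 and 88 became 107 and 72, 80 and 82, and 38 and 127 without scaling, and 48 and 155, 45 and 144, and 123 and 52 with normexp.

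With the test limited to the 97 miRNAs read on all 12 arrays, and so to fewer miRNAs, 88 (29 higher, 59 lower), 78 (39, 39) and 71 (28, 43) were called in 4T1 against 67NR, 168FARN and 4TO7, 92 (30, 62) and 87 (28, 59) in 168FARN and 4TO7 against 67NR, and 75 (40, 35) in 4TO7 against 168FARN, with median differences of -0.92, 0.03, -0.11, -1, -0.72 and 0.08. Leaving out 1 array at a time gave 178 to 181, 159 to 168, 129 to 139, 193 to 197, 177 to 180 and 158 to 167 calls in the same order. The strand comparison then ran from -1.14 to -0.99, -1.40 to -1.27, -0.30 to -0.13, 0.21 to 0.37, -0.92 to -0.75 and -1.22 to -1.03.

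Same-numbered arrays did not deviate together (18 pairs, correlations -0.78 to 0.51, 6 of them over 0.1), and 1 array correlated best with its own number. With the replicate number as a block, 179, 165, 134, 195, 178 and 163 miRNAs were called, and of the calls of the 4 tested miRNAs that of miR-7a in 4TO7 against 67NR was lost (0.13, limma adjusted p = 0.057). miR-128 for 4T1 against 4TO7 was called without 168FARN replicate 3 (-0.11, adjusted p = 0.030). Halving or doubling the floor changed no call of the 4 miRNAs except that of miR-9* in 4T1 against 4TO7, lost with the doubled floor.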
